A study of Mus musculus with 42 samples.

Results

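HOXC6 sites without HOXC9 or HOXC10 were positions bound by HOXC6 in differentiating motor neurons (MNs) where neither HOXC9 nor HOXC10 had a binding event nearby. They were found among the 10000 HOXC6 binding events of day 3 with the most reads on chromosomes 1 to 19 and X, out of 17898 on these chromosomes. A site was a member when no event of the day 3 HOXC9 list or the day 3 HOXC10 list lay within 100 bp. This left 1663 members, or 16.63% of the top HOXC6 sites. Of the other top sites, 5774 had HOXC9 and HOXC10 events (called shared sites here), 2237 had HOXC9 alone and 326 had HOXC10 alone.

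Mouse embryonic stem cell (ESC) lines of the Ainv15 background each carried a doxycycline (Dox)-inducible, tagged Hox transgene inserted at the Hprt locus. ESCs were grown as embryoid bodies (EBs), treated with retinoic acid (RA) and the hedgehog agonist SAG from day 0 and given Dox on day 2, so that day 3 and day 4 cells had seen Dox for 24 h and 48 h. HOXC6, HOXC8, HOXC9, HOXC10, HOXA9, HOXD9, HOXC13 and 4 HOXC10/HOXC13 chimeras were mapped by ChIP-seq on day 3, and HOXC6, HOXC9 and HOXC10 again on day 4. HOXC6 and HOXC9 were also mapped in EBs given Dox for 12 h without RA and SAG. MEIS was mapped on day 3 in iHoxc6, iHoxc9 and iHoxc10 cells with V5-tagged transgenes, and PBX on day 4 in iHoxc9 and iHoxc10 cells, each in 1 library. The transgenes of HOXC6, HOXC8, HOXC9, the chimeras and day 4 HOXC10 were Flag-tagged. Of 3 day 3 HOXC10 libraries, replicate 1 used a V5-tagged line, and an HA-tagged line gave replicate 2 of HOXC13, HOXA9 and HOXD9, so tag and antibody varied within these lists. All factors were expressed from a transgene in a cell mixture that also held interneurons, and no library without Dox was used here.

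Hox proteins are homeodomain transcription factors that give cells their position along the head-to-tail axis. In the spinal cord HOXC6 and HOXC8 belong to brachial MNs, HOXC9 to thoracic MNs and HOXC10 to lumbar MNs. The homeodomain of central members such as HOXC6 reads TAAT cores, whereas posterior members (groups 9 to 13) read TTAT or TTAC cores more readily, and the TALE homeodomain proteins PBX and MEIS bind DNA beside many Hox proteins.

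The 8 members with the most HOXC6 reads among those with a TAAT core follow as examples of strong sites. Each is the 101 bases centred on the event, read from GRCm38.p6 (mm10), plus strand, 5′ to 3′. Capitals mark TAAT, TTTAT and their reverse complements ATTA and ATAAA, and a site is named after the protein-coding gene with the nearest transcription start site (TSS). Several of these sites lay just outside the limit of the rule. The nearest day 3 HOXC9 event was 110 bp from the Thbs1 site, 111 bp from Api5 and 126 bp from Pfkp. It was 130 bp from both the Agtpbp1 and the Rgmb site.
Thbs1 (chr2:117939035-117939135): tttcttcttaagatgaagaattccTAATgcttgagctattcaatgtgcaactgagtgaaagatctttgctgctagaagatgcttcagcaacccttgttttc
Pfkp (chr13:7191726-7191826): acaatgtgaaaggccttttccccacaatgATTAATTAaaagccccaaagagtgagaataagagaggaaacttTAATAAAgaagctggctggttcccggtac
Agtpbp1 (chr13:59517783-59517883): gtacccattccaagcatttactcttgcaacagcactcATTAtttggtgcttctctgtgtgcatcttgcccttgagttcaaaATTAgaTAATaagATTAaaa
Klf7 (chr1:64212317-64212417): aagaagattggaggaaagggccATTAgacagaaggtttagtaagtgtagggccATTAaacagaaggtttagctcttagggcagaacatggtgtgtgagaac
Api5 (chr2:95054099-95054199): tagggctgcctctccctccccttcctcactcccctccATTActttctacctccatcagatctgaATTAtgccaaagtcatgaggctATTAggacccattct
Sphkap (chr1:83756902-83757002): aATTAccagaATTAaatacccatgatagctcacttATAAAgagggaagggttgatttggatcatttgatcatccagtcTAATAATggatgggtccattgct
Col15a1 (chr4:47324092-47324192): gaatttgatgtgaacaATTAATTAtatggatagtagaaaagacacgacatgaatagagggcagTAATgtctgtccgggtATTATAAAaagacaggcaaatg
Rgmb (chr17:16089562-16089662): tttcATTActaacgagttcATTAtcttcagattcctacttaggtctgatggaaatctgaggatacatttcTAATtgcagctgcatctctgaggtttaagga

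The member with the most HOXC6 reads among those with a HOXA9 event lay in an intron of Adamtsl2, and the one among those with a HOXC13 event lay in intergenic DNA near Kitl. They are shown because both factors were rare or weak at members. The Adamtsl2 site held 2 TAAT and no TTTAT, the Kitl site no TAAT and 2 TTTAT. The Pfkp site was also the member with the most HOXC6 reads among those with MEIS in iHoxc6 cells.
Adamtsl2 (chr2:27104406-27104506): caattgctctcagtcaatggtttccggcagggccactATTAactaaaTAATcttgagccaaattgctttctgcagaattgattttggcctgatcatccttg
Kitl (chr10:100127938-100128038): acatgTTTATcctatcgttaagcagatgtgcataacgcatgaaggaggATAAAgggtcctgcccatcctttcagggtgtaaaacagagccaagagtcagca

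For comparison, the 3 shared sites with the most HOXC6 reads are given, a choice made after their values were seen. They lay nearest to Pex2 (a peroxisome assembly gene), Nkx2-1 (a forebrain and lung homeobox gene) and Rarb (a retinoic acid receptor), with 1854.6, 1631.0 and 1572.1 HOXC6 reads. TAAT was present in all 3 windows, TTTAT only in that near Pex2. Most member windows printed above were chosen for holding TAAT, so TAAT in these windows cannot be compared between the groups. For TTTAT, 3 shared windows are too few for a comparison.
Pex2 (chr3:5453722-5453822): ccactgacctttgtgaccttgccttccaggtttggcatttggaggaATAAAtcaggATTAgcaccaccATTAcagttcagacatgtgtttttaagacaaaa
Nkx2-1 (chr12:56458860-56458960): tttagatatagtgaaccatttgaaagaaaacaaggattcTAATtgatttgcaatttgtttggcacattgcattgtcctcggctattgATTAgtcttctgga
Rarb (chr14:16733651-16733751): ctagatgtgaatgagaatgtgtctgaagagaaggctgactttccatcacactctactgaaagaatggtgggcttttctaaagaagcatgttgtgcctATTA

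The members were weaker HOXC6 sites than the shared ones. HOXC6 reads, the ChIP reads that the caller assigned to an event over both replicates, ran from 64.5 to 720.3 at members with a median of 90.1, against a median of 124.6 and a maximum of 1854.6 at shared sites. The best member stood at rank 84 and the median member at rank 6466. Members made up 5.0% of ranks 1 to 1000 and 25.8% of ranks 8001 to 9000, so the strongest HOXC6 sites nearly always had HOXC9 or HOXC10 as well. The members were chosen by their HOXC6 reads and by the absence of HOXC9 and HOXC10 events, so these values are a description and no test was made of them. The events at ranks 10000 and 10001, on either side of the limit, both had 64.5 reads, with log2 fold over control of 2.42 and 2.28.

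The distance rule also cut through a continuum. The nearest HOXC9 event lay at a median of 8359 bp from a member and the nearest HOXC10 event at 22964 bp, but 181 members had an event of either factor at 101 to 150 bp and a further 67 at 151 to 200 bp. Just inside and just outside the limit, 43 top sites had their nearest event at 91 to 100 bp and 41 members at 101 to 110 bp. The members at 101 to 200 bp (248, or 14.9%) had a median of 111.1 HOXC6 reads, the 1228 members over 1 kb away (73.8%) a median of 88.0. Among members of ranks 1 to 2500, 29.6% had such an event within 200 bp, against 8.99% at ranks 7501 to 10000. The strongest members were therefore often beside a HOXC9 or HOXC10 event: 7 of the 15 leading ones lay within 200 bp, and the Thbs1 site lay 110 bp from a HOXC9 event.

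**Figure D1:**
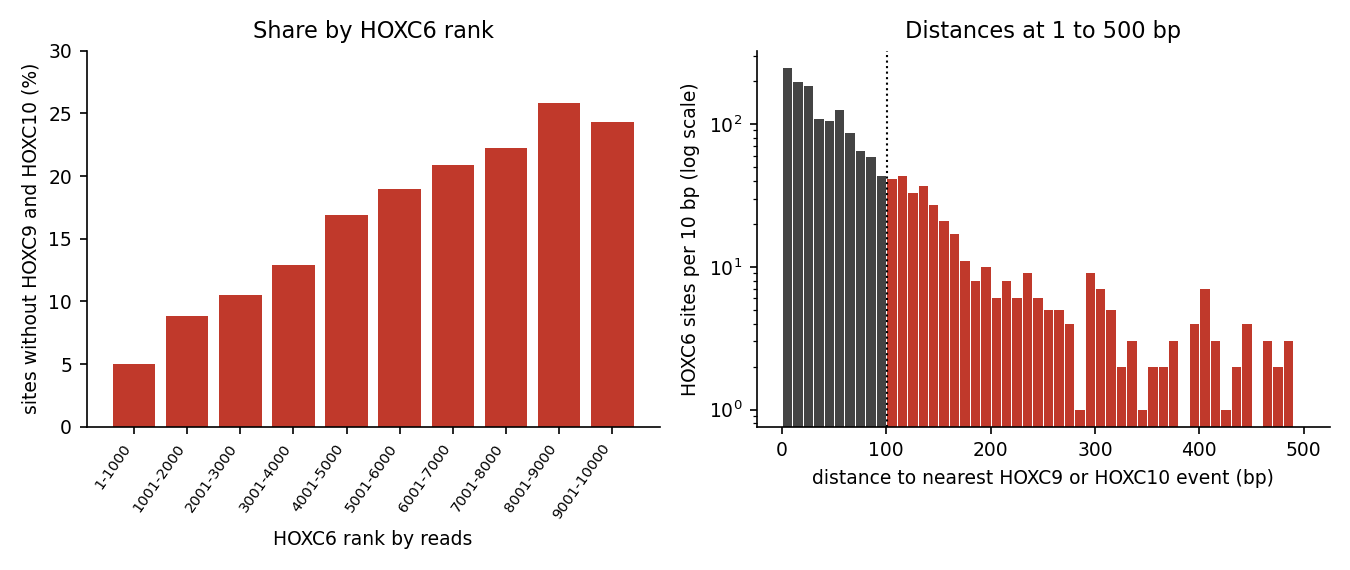
Left, the share of HOXC6 sites (%) that lacked HOXC9 and HOXC10, in bins of 1000 ranks by HOXC6 reads, rising from 5.0% to 25.8% and then 24.3%. Right, the number of top HOXC6 sites per 10 bp (log scale) by distance to the nearest HOXC9 or HOXC10 event from 1 to 500 bp, with members in red, other sites in grey and the 100 bp limit dotted; counts on either side of the limit were alike, 43 and 41 sites. Sites at a distance of 0 bp are not drawn.

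HOXC8, the other brachial factor, was bound at nearly every member. A HOXC8 event lay within 100 bp of 1502 of 1663 members, or 90.3% (95% Wilson interval 88.8 to 91.6), against 97.3% of all top HOXC6 sites and 99.2% of shared sites. When the members were moved by 10 kb, 0.601% had a HOXC8 event, which gives the local background of that list. All 186 members of ranks 1 to 2500 had HOXC8, and 85.6% (82.6 to 88.2) of those at ranks 7501 to 10000, against 97.9% (96.9 to 98.6) of shared sites of the same ranks. The HOXC8 events at members had a median of 140 reads, against 73.7 over the whole HOXC8 list and 276 at shared sites. Their median rank was in the best 25.0% of the list, that of events at shared sites in the best 10.3%. Wilson intervals cover counting error over sites only, since each list pooled its replicates and gave no value per library, so no test across differentiations was possible.

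HOXC6 itself was still called at the members a day later. Of the members, 1622 or 97.5% (96.7 to 98.2) had a day 4 HOXC6 event, against 99.0% of all top sites, and 1476 (88.8%) had both HOXC8 and day 4 HOXC6, against 96.5%. With the 10000 strongest day 4 HOXC6 events alone, 47.0% of members and 75.4% of shared sites had a match. The day 4 events at members had a median of 209 reads, against 61.2 over the day 4 list and 372 at shared sites. Without any HOXC8 or day 4 HOXC6 event were 15 members, of which 9 lay in introns of Def8 on chromosome 8.

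Posterior factors that took no part in the choice were much rarer at members than among all top HOXC6 sites. HOXA9 had an event at 434 members, 26.1% (24.0 to 28.3), against 79.7% of all top sites, 75.6% of sites with HOXC9 alone and 97.4% of shared sites. HOXD9 had an event at 490 members, 29.5% (27.3 to 31.7), against 75.4% of all top sites and 95.8% of shared ones. HOXC13, the most posterior factor mapped, was at 68 members, 4.09% (3.24 to 5.15), against 28.1% and 38.3%, although its list was the longest of day 3 with 115819 events. Sites with HOXC10 alone were nearly as low in HOXC13, at 6.75% (4.50 to 10.0), so this trait was not particular to members. The shares of members depended on how they were excluded. When HOXC9 and HOXC10 were taken by their 10000 strongest events in place of the full lists, which left 5089 members, HOXA9 was at 62.5%, HOXD9 at 57.7% and HOXC13 at 14.5% of them. With the full lists, all 3 shares lay above the 0.601% to 0.842% found after the 10 kb move. HOXA9 and HOXD9 differ from HOXC9 in cluster but share its paralog group, so their lists are close relatives of a list that the rule used.

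**Figure D2:**
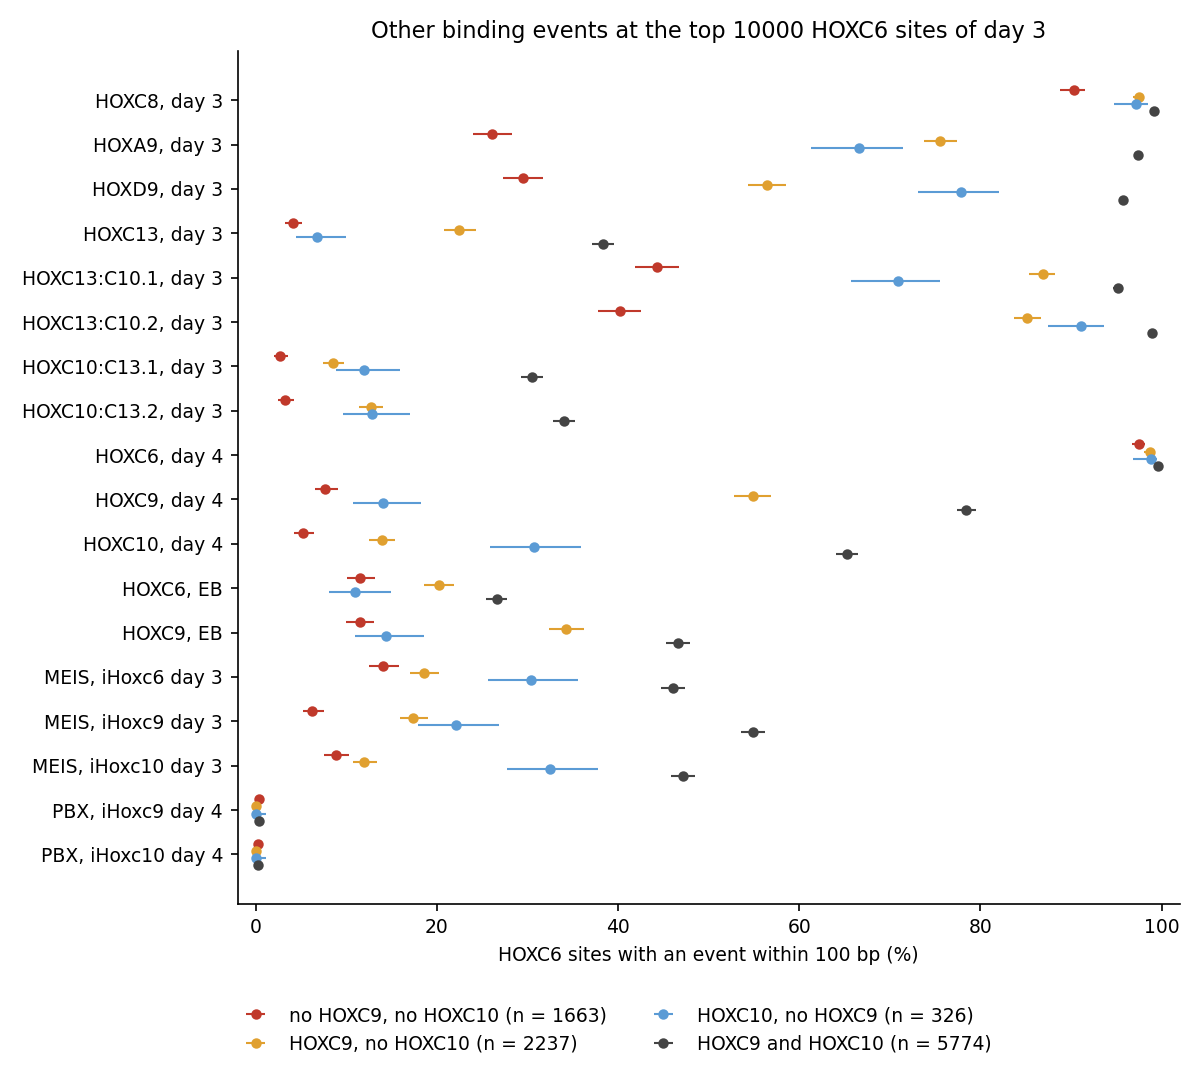
Share of top HOXC6 sites (%, horizontal axis) with an event of each other list within 100 bp, for sites with neither HOXC9 nor HOXC10 (red, n = 1663), HOXC9 alone, HOXC10 alone and both (grey); bars are 95% Wilson intervals. Members sit close to the other classes for HOXC8 (90.3%) and day 4 HOXC6 (97.5%) and far below shared sites for HOXA9 (26.1% against 97.4%), HOXD9 and HOXC13.

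The HOXA9 and HOXD9 gap was seen among strong and weak HOXC6 sites alike. HOXA9 was at 26.9% (21.0 to 33.7) of members of ranks 1 to 2500 and at 23.4% (20.2 to 26.9) of those of ranks 7501 to 10000, while shared sites of the same ranks stood at 98.5% and 96.0%. HOXD9 went from 30.6% to 27.5% at members and from 97.2% to 95.1% at shared sites over the same ranks. Nor did the share fall with distance from the rule's limit: HOXA9 was at 25.4% of members with a HOXC9 or HOXC10 event at 101 to 200 bp and at 25.6% of members over 1 kb from one. HOXD9 stood at 28.2% and 29.2% in these groups.

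Where HOXA9 or HOXD9 was present at a member, its event was weak. HOXA9 events at members had a median of 67.2 reads, below the 79.9 of the whole list, whereas those at shared sites had a median of 252. HOXD9 events had a median of 75.0 reads at members and 199 at shared sites. When only the 10000 strongest events of each list were used, which makes the lists equal in length, 15 members (0.902%) had HOXA9 and 33 (1.98%) had HOXD9, against 63.0% and 64.7% of shared sites. On the same footing HOXC8 was at 40.4% of members and 79.0% of shared sites. HOXC8 thus passed the stricter limit at many members, and HOXA9 and HOXD9 at hardly any.

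HOXA9 and HOXD9 overlapped in part at members. Of the 434 members with HOXA9, 71.2% had HOXD9, compared with 14.7% of the 1229 without HOXA9. In all, 615 members (37.0%) had either factor, against 83.9% of all top sites, and 309 (18.6%) had both, against 71.2%. HOXA9 without HOXD9 was at 125 members and HOXD9 without HOXA9 at 181. A HOXA9, HOXD9 or HOXC13 event was found at 645 members, 38.8% (36.5 to 41.2), against 85.0% of all top sites, which left 1018 members (61.2%) with none of the 3. With the weaker exclusion the share with any of them was 71.7%. HOXC6, HOXC9, HOXC10, HOXC13, HOXA9 and HOXD9 were called in a common run, and the median distance from a member to its HOXA9 or HOXD9 event was 0 bp. It was 11 bp for HOXC8, whose list came from another run.

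**Figure D3:**
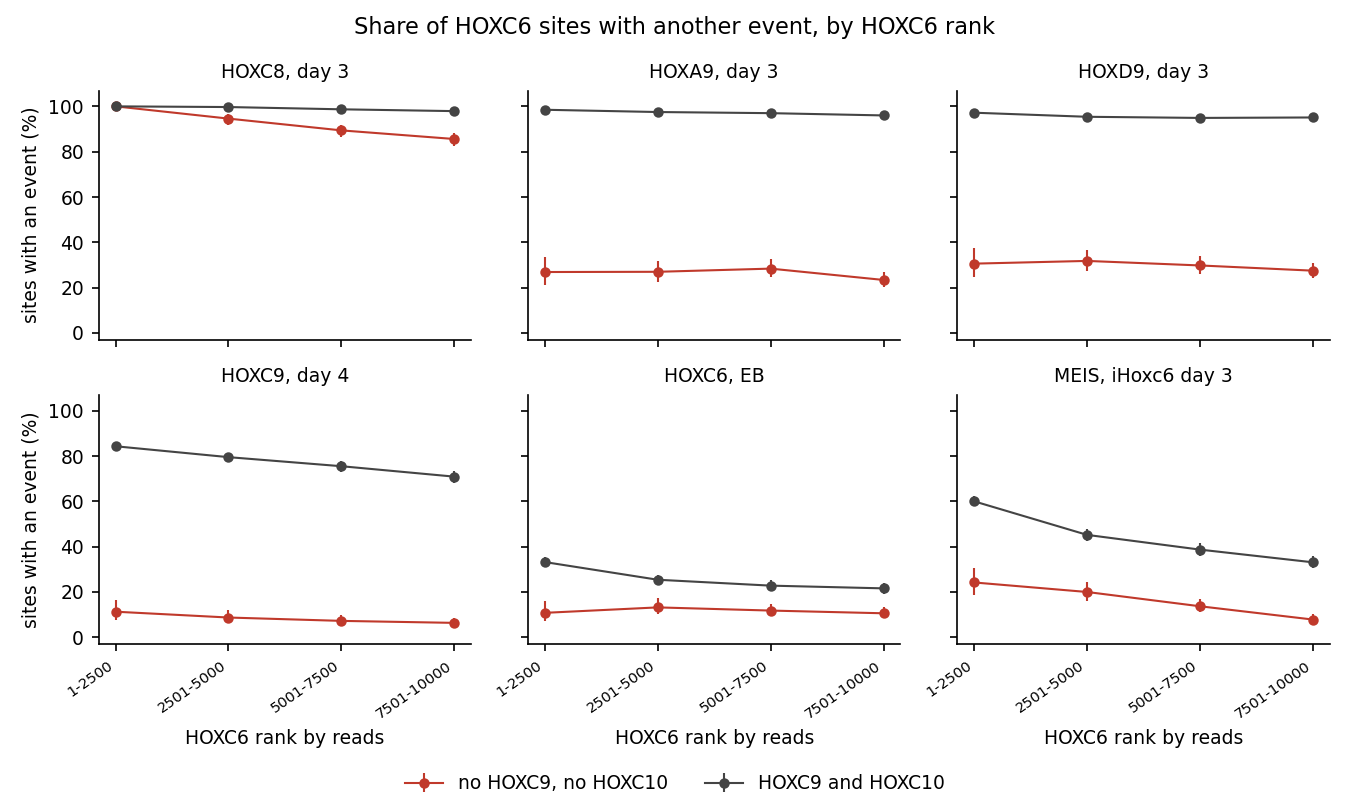
Share of HOXC6 sites (%, vertical axis) with an event of 6 other lists, in 4 bins of HOXC6 rank, for members (red) and shared sites (grey) with 95% Wilson intervals. HOXA9 stays at 23.4% to 28.4% of members in every bin and at 96.0% or more of shared sites, while MEIS in iHoxc6 cells falls from 24.2% to 7.84% of members and from 60.0% to 33.1% of shared sites.

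The chimeras joined the N-terminal part of HOXC13 or HOXC10 to the DNA-binding homeodomain and C-terminus of the other. HOXC13:C10.1 and HOXC13:C10.2, with the homeodomain of HOXC10, had events at 44.3% (41.9 to 46.7) and 40.2% (37.8 to 42.5) of members, against 84.1% and 85.8% of all top sites. The reverse chimeras HOXC10:C13.1 and HOXC10:C13.2, with the homeodomain of HOXC13, were at 2.71% and 3.25% of members, against 20.3% and 23.5% of all top sites. Chimeras with the homeodomain of HOXC10 were thus called at many sites where HOXC10 itself was absent by the rule. At least 1 of the HOXC13:C10 chimeras was at 945 members (56.8%), against 91.2% of all top sites. Among them were 452 with no HOXA9, HOXD9 or HOXC13 event, 27.2% of members against 8.78% of all top sites. Their events were weak as well, with median ranks at 51.5% and 55.3% of their lists, and among the 10000 strongest events of each list 1.92% and 1.62% of members had a match. The signal fraction, the caller's estimate of the share of reads in events, averaged 0.431 and 0.356 in these libraries and 0.073 in the day 3 HOXC10 libraries, where replicate 1 had 5036342 reads and a fraction of 0.017. Replicates 2 and 3 of HOXC10 had 18158702 and 21837512 reads, and the day 3 HOXC6 libraries averaged a fraction of 0.075. How far the shallow replicate 1 or the signal fraction of the HOXC10 data enlarged the set of members was not tested.

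HOXC9 and HOXC10 were called at few members on day 4 too. Day 4 HOXC9 was at 128 members, 7.70% (6.51 to 9.08), against 59.3% of all top sites and 54.9% of sites with HOXC9 alone on day 3. Day 4 HOXC10 was at 87 members, 5.23% (4.26 to 6.41), against 42.7% of all top sites and 30.7% of sites with HOXC10 alone on day 3. The day 4 HOXC10 list thus missed most sites of that class as well. These are the same factors that the rule used, measured in other libraries. Part of the 128 and 87 lay beside a day 3 event: day 4 HOXC9 was at 17.7% of members with a day 3 HOXC9 or HOXC10 event at 101 to 200 bp and at 6.27% of those over 1 kb away, and day 4 HOXC10 at 15.7% and 3.34%. With members excluded by the 10000 strongest day 3 events alone, day 4 HOXC9 was at 35.3% and day 4 HOXC10 at 16.2% of 5089 members. The day 4 HOXC9 events at members had a median of 68.8 reads, and those at shared sites 188.

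Counting every posterior factor, chimera and stage together, outside the 2 lists of the rule, 503 members (30.2%) had no posterior event within 100 bp. Among all top sites, members included, 538 (5.38%) had none. Events of the rule's lists beyond 100 bp did not count, such as the HOXC9 event 130 bp from the Agtpbp1 site. Of the 503 members, 415 had HOXC8 and day 4 HOXC6, or 25.0% of all members against 4.49% of all top sites. The members were found in a median of 4 of the other 18 lists and shared sites in a median of 11. The largest group, 398 members (23.9%), was in 2 other lists, and 6 members were in none.

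In EBs without RA and SAG, most members were not called. EB HOXC6 was at 192 members, 11.5%, against 22.1% of all top sites and 26.6% of shared sites. EB HOXC9 was at 191 members, also 11.5%, against 37.0% and 46.6%. Sites with HOXC10 alone stood near the members, with EB HOXC6 at 11.0% (8.08 to 14.9) and EB HOXC9 at 14.4% (11.0 to 18.6). EB HOXC6 and EB HOXC9 met at 110 members (6.61%, against 18.0% of all top sites): EB HOXC9 was at 57.3% of members with EB HOXC6 and at 5.51% of those without. So although no member had a day 3 HOXC9 event within 100 bp, 191 members carried a HOXC9 event in EBs. Some of the 191 lay beside a day 3 event. EB HOXC9 was at 39 members (15.7%) with a day 3 HOXC9 or HOXC10 event at 101 to 200 bp. It was at 129 (10.5%) of those over 1 kb from one. The EB HOXC9 list was the longest of all with 128322 events, and its events lay a median of 33.0 bp from a member. EB HOXC6 was at 10.8% of members of ranks 1 to 2500 and 10.6% of those of ranks 7501 to 10000. At shared sites of these ranks it fell from 33.2% to 21.6%. EB HOXC9 went from 13.4% to 10.3% of members and from 52.0% to 40.8% of shared sites.

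MEIS was uncommon at members in all 3 lines. It had an event at 234 members in iHoxc6 cells, 14.1% (12.5 to 15.8), against 34.1% of all top sites and 46.1% of shared sites. In iHoxc9 cells it was at 104 members, 6.25% (5.19 to 7.52), and in iHoxc10 cells at 147, 8.84% (7.57 to 10.3), against 37.4% and 32.5% of all top sites. Members had MEIS most often in iHoxc6 cells, although that list was the shortest (8154 events, against 22703 in iHoxc9 and 12928 in iHoxc10 cells), while shared sites had it most often in iHoxc9 cells, at 54.9%. This difference in order vanished with lists of equal length, where iHoxc6 came first and iHoxc9 last in both classes. With 8000 events from each list, members stood at 13.7%, 1.44% and 5.05% in iHoxc6, iHoxc9 and iHoxc10 cells and shared sites at 45.8%, 33.1% and 36.0%. Each MEIS list came from 1 library, so library and induced factor cannot be told apart.

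The presence of MEIS followed HOXC6 strength and the nearness of HOXC9 or HOXC10. Strength and nearness went together at members, and they were not separated here. MEIS in iHoxc6 cells was at 24.2% (18.6 to 30.8) of members of ranks 1 to 2500 and at 7.84% of those of ranks 7501 to 10000, and shared sites fell likewise from 60.0% to 33.1%. It was at 25.0% of members with a HOXC9 or HOXC10 event at 101 to 200 bp and at 11.6% of those over 1 kb from one, and for MEIS in iHoxc9 cells the values were 19.4% and 3.58%. Members with MEIS also had HOXD9 more often, 51.3% (44.9 to 57.6) against 25.9% (23.7 to 28.2) of those without, and HOXA9 at 40.2% against 23.8%. In all, 301 members (18.1%) had MEIS in at least 1 line, against 48.2% of all top sites. It was at 53 members (3.19%) in all 3 lines, against 22.1%, and at 117 (7.04%) in iHoxc6 cells alone, against 5.45%.

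PBX lists were short, with 1164 and 848 events and signal fractions of 0.009 and 0.008. In iHoxc9 cells PBX was at 7 members (0.421%, 0.204 to 0.866), against 0.27% of all top sites, and in iHoxc10 cells at 4 (0.241%), against 0.19%. All 7 were promoter sites, 34 to 242 bp from the TSS of Btbd9, Rpl21, Oacyl, Mrps28, Ipo13, Mrps5 and Fars2, named after their values were seen. Rpl21, Mrps28 and Mrps5 encode ribosomal proteins, the latter pair of the mitochondrion. The PBX events there were among the strongest of their list, with a median of 62.4 reads against 29.9. The PBX libraries had 23333969 and 21642395 reads, so they were not shallow. With signal fractions this low, a missing PBX event at the other members cannot be read as absence of PBX.

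The posterior TTTAT core was less common at members than at other HOXC6 sites, whereas the shares with TAAT lay close together. Motifs were searched on both strands within 50 bp of the event. TAAT was in 1209 members, 72.7% (70.5 to 74.8), against 75.0% of all top sites, 75.1% (74.0 to 76.2) of shared sites and 71.1% of all 17898 HOXC6 windows of that length. At ranks 1 to 2500 the shares were 72.6% (65.8 to 78.5) of members and 78.5% (76.6 to 80.3) of shared sites. In windows of the same length 1 kb away, 50.5% held it. TTTAT was in 451 members, 27.1% (25.0 to 29.3), against 40.0% of all top sites, 44.7% (43.4 to 46.0) of shared sites and 38.4% of all HOXC6 windows. In the windows 1 kb away from members 31.8% held TTTAT, so members had it no more often than DNA at that distance. Counting both motifs, 863 members (51.9%) had TAAT alone, 346 (20.8%) had both, 105 (6.31%) had TTTAT alone and 349 (21.0%) had neither. The shared sites had TAAT alone at 41.2% and both at 33.9%.

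The TTTAT gap was found in each rank bin. From the strongest to the weakest of the 4 rank bins, TTTAT was in 29.6%, 26.8%, 27.5% and 26.3% of members and in 42.3%, 43.5%, 49.2% and 45.2% of shared sites. Sites with HOXC10 alone stood near the members at 27.0%, and sites with HOXC9 alone near the shared ones at 39.3%. Within 20 bp to the left or right of the event, members held 8.96 and 7.34 TTTAT copies per 100 sites and shared sites 15.8 and 10.9. Members held fewer copies in the bins centred 30 bp to the left and right, 5.95 and 5.41. In the bins centred at 290 bp they held 8.36 and 8.96.

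**Figure D4:**
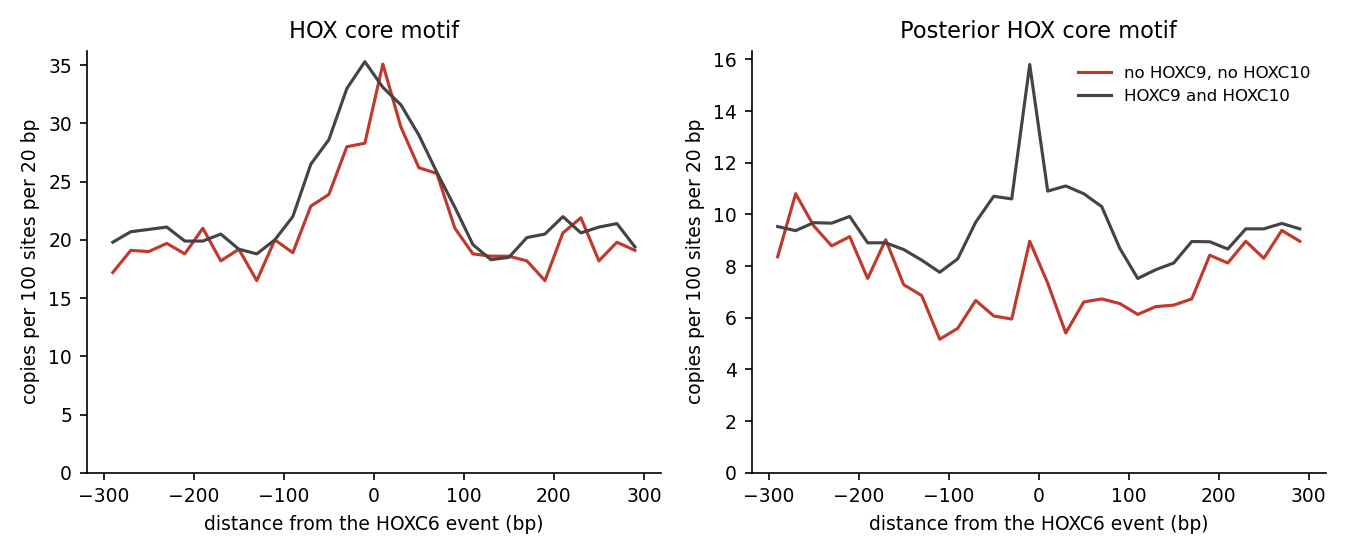
Motif copies per 100 sites per 20 bp (vertical axis) by distance from the HOXC6 event (bp) at members (red) and shared sites (grey), both strands, with TAAT as the HOX core motif on the left and TTTAT as the posterior HOX core motif on the right. TAAT peaks at the event in both classes (35.1 copies in the highest bin of members), while TTTAT reaches 15.8 copies in the highest bin of shared sites and 8.96 in the same bin of members.

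TGATTTAT, a composite of the TGAT read by PBX and a posterior Hox core (it contains TTTAT), was in 14 members (0.842%, 0.502 to 1.41), against 3.46% of all top sites, 4.69% of shared sites and 3.47% of all HOXC6 windows. TGATNNAT, the general PBX and Hox composite, was in 12.5% of members, 16.1% of all top sites, 18.2% of shared sites and 15.2% of all HOXC6 windows, and in 5.77% of windows 1 kb from members. It was therefore more common at members than in nearby DNA, by a smaller margin than at shared sites. TAATTA was in 6.07% of members, 7.86% of all top sites and 7.55% of all HOXC6 windows. The MEIS motif TGACAG was in 11.0% of members, against 12.6% of all top sites and 12.0% of all windows, and in 20.1% (15.5 to 25.7) of the 234 members with MEIS in iHoxc6 cells against 9.47% (8.03 to 11.1) of the 1362 members with no MEIS event in any line. Those 234 members did not differ as clearly from them in TAAT, with 73.9% and 72.5%.

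E-box letters, read by the bHLH factors that drive neurogenesis, did not separate the classes. CAGCTG was in 11.5% of members, 11.3% of all top sites and 11.1% of all windows, and CATCTG in 20.9%, 19.2% and 18.3%. Both were more common than 1 kb away from members, where 4.03% and 7.49% of windows held them. Members thus held E-box letters about as often as other HOXC6 sites.

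Subsets of members differed in motif by the factor present. The 68 members with HOXC13 had TTTAT at 45.6% (34.3 to 57.3) and TTTAC at 44.1% (32.9 to 55.9), against 27.1% and 16.4% of all members. TTTAC was in 18.6% of all top sites and 18.2% of all HOXC6 windows. Members with HOXA9 or HOXD9 had no more TTTAT than the rest, 24.2% (21.0 to 27.8), and somewhat less TAAT, 68.5% (64.7 to 72.0). Of the 128 members with day 4 HOXC9, 38.3% (30.3 to 46.9) had TTTAT. The 503 members with no posterior event of any kind resembled the whole set, with TAAT in 73.2% and TTTAT in 26.2%.

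A count of all 2080 words of 6 bases (a word and its reverse complement counted together) pointed to the same letters without a motif being named. The words most depleted at members against shared sites were ATAAAT (11.5% against 23.2%), CATAAA (5.35% against 15.7%) and GATTTA (6.43% against 16.4%). ATAAAT and CATAAA contain the reverse complement of TTTAT, and GATTTA is part of TGATTTAT. The count was made at the same sites, so it is no independent support for the TTTAT gap. AGGTCA, the core word read by nuclear receptors such as the RA receptors, was in 8.96% of members and 15.2% of shared sites. The words most in excess at members differed by less, with AAAACA in front at 16.2% against 11.5%. Base composition differed little, with a median GC content of 41.6% at members and 42.6% at shared sites.

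Members mostly lay far from TSSs, as other HOXC6 sites did. The median distance to the nearest protein-coding TSS was 64734 bp for members, 66281 bp for members moved by 10 kb and 71174 bp for shared sites, and 654 members (39.3%) lay beyond 100 kb. Within 1 kb of a TSS were 45 members, 2.71% (2.03 to 3.60), against 2.25% of all top sites and 1.62% of members moved by 10 kb. Introns held 722 members, 43.4% (41.1 to 45.8), against 43.1% of all top sites and 43.2% after the move, exons 2.22%, and intergenic DNA 51.7%. The intron share was thus close to that of all top sites. A move of 10 kb is short beside the median distance to a TSS, so it could change distance and intron share little. The centre lay in an annotated repeat at 6.86% of members and 5.42% of shared sites.

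Members were spread over all 20 chromosomes tested, from 12.6% of the top HOXC6 sites on chromosome 18 to 20.1% on chromosome 8. Another member lay within 50 kb of 221 members (13.3%), and 1 of the more numerous shared sites within 50 kb of 576 (34.6%) and within 10 kb of 266 (16.0%).

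The 15 members with the most HOXC6 reads were led by sites near Thbs1 (thrombospondin 1, a matrix protein; 720.3 reads), Pfkp (the platelet isoform of phosphofructokinase; 628.7 reads), Agtpbp1 (a tubulin deglutamylase; 607.2 reads) and Klf7 (a Krüppel-like factor of neurons; 538.3 reads). The others lay near Api5, Krr1, Sphkap, Col15a1, Rgmb, Zfp704, Scfd2, Adamtsl2, Kitl and Alppl2, with Rgmb, a BMP co-receptor, named by a pair of sites. All 15 had HOXC8 and day 4 HOXC6 events. HOXD9 was at 7 of them, HOXA9 at 2 and HOXC13 at 1, while HOXC13:C10.1 was at 12 and MEIS in iHoxc6 cells at 4. TAAT was in 11 and TTTAT in 6, and 10 were intergenic and 5 intronic.

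Single sites showed how differently the same position could be read. The Agtpbp1 site, in an intron 15357 bp from the TSS, had 607.2 HOXC6, 1086.3 HOXC8 and 1300.6 day 4 HOXC6 reads and no other event within 100 bp, but a day 3 HOXC9 event lay 130 bp away. The Klf7 site was also in the HOXC8 and day 4 HOXC6 lists only, with 538.3 HOXC6 and 1139.8 day 4 HOXC6 reads but 84.9 HOXC8 reads. By contrast the Col15a1 site, near a collagen gene, had 482.3 HOXC6 reads and 4432.1 day 4 HOXC6 reads, the event at rank 12 of the day 4 list, and 9 other lists had it, among them MEIS in all 3 lines and day 4 HOXC9 and HOXC10. The Kitl site, near the gene of the KIT ligand, was in 10 other lists, with HOXC13 and all 4 chimeras. Reads of different lists were not scaled to each other.

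By nearest TSS, 1341 protein-coding genes had a member, 6.17% of 21728, and 236 genes had more than 1. Most of these genes had other HOXC6 sites as well: 759 (56.6%) also had a shared site, and 454 (33.9%) had no other top HOXC6 site. After Def8 with 12 members, the genes with the most were Zfp608 (a zinc finger gene) and Fhit (a tumour suppressor in a fragile site) with 6 each. Zfhx3 (a homeodomain factor of spinal neurons), Cntnap2 (a neurexin family member), Npas3 (a neuronal bHLH-PAS factor), Olfm4, Adgrl2 (a latrophilin), Dnajc1 and Cdh11 (a cadherin) had 4 each. Zfp608 had 43 top HOXC6 sites in all, Cntnap2 17 and Dnajc1 5.

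The members were then counted by lists of genes for neuronal functions and read against 16.63%, the share of members among all top sites. Members were 8 of 74 top sites near limb motor column and motor pool genes (10.8%, 5.58 to 19.9) and 8 of 56 near MN identity genes (14.3%, 7.42 to 25.7). They were 5 of 82 near ventral progenitor and hedgehog genes (6.10%, 2.63 to 13.5), 5 of 59 near TALE cofactor genes (8.47%, 3.67 to 18.4), 1 of 45 near Hox genes (2.22%, 0.393 to 11.6) and 1 of 31 near RA pathway genes (3.23%, 0.572 to 16.2). Near neurogenic bHLH and Notch genes they were 2 of 44, and near pluripotency genes 0 of 24 (up to 13.8%). Members were 39 of 239 sites near axon guidance genes (16.3%), 37 of 238 near cadherin and synaptic adhesion genes (15.5%) and 16 of 81 near spinal interneuron factor genes (19.8%). Most intervals include 16.63%. Those of the ventral progenitor, Hox, RA pathway, neurogenic and pluripotency lists end below it, and sites near 1 gene are not independent of each other.

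**Figure D5:**
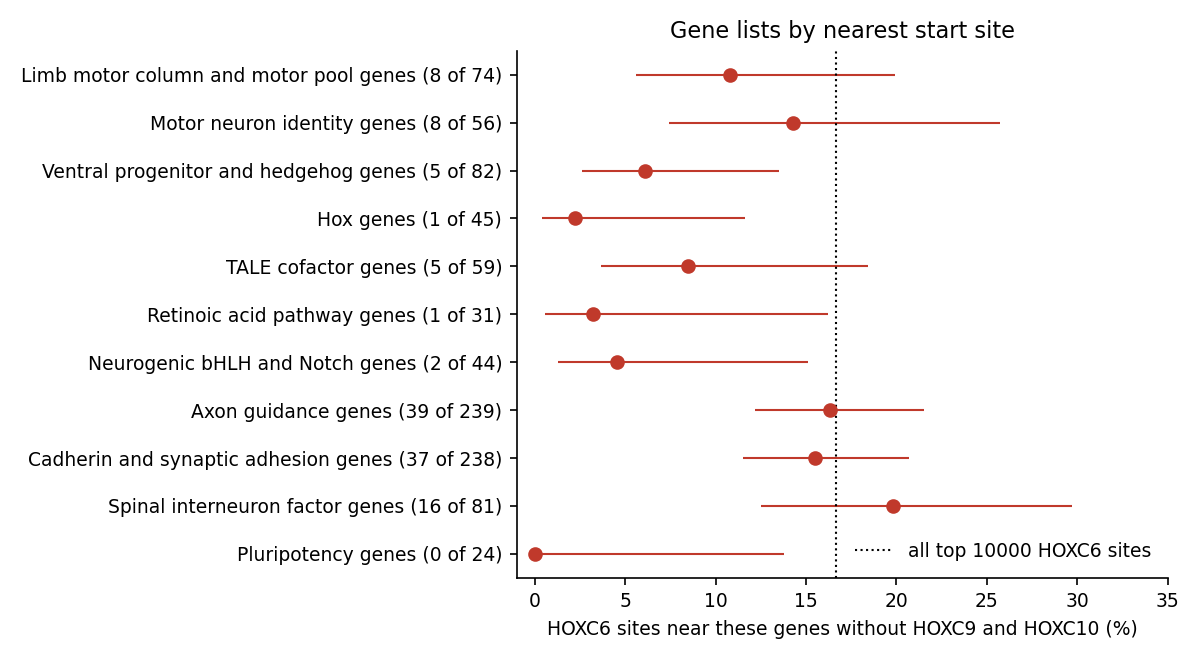
Share of top HOXC6 sites near the genes of each list that lacked HOXC9 and HOXC10 (%, horizontal axis), with 95% Wilson intervals; the dotted line marks 16.63%, the share over all top HOXC6 sites. The points for Hox genes (2.22%) and ventral progenitor genes (6.10%) lie left of the line with their intervals, those for axon guidance and adhesion genes near it.

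Among the genes that build MNs, Olig2, the bHLH factor of MN progenitors, had 2 members in intergenic DNA 32521 and 40695 bp from its TSS, with 96.8 and 243.4 HOXC6 reads. They were 2 of 7 top sites nearest to Olig2, of which 5 were shared. Isl2, a LIM homeodomain factor of postmitotic MNs, had 1 member 43622 bp away with 178.6 reads, inside an intron of another gene. Stmn2, a microtubule regulator of growing axons, had 1 top HOXC6 site in all, and it was a member, 1590 bp from the TSS with 148.3 reads and HOXC8 and day 4 HOXC6 as its only other events. Ebf1, an early B-cell factor family gene active in new neurons, had 1 member of 13 top sites.

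In the limb and motor pool list, Sema3e had 2 members of 3 top sites, both intronic, with 132.8 reads at the stronger. This semaphorin guides axons and marks a motor pool. Nr2f2 (an orphan nuclear receptor) had 1 of 14, Etv5 (an ETS factor) 1 of 2 and Cdh8 (a cadherin) 1 of 5. Of the ventral progenitor genes, Nkx6-1, a homeodomain factor needed for MN progenitors, had 3 members of 19 top sites, 203289 to 250461 bp away. Pax6, a progenitor homeodomain factor, had 1 of 3 in an intron 8532 bp from the TSS, and Ptch1, the hedgehog receptor, 1 of 3.

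Of the TALE genes, Meis1 had 2 members of 24 top sites, Tgif1 1 of 3 and Meis2 1 of 10. Rarb had 1 member, with 97.7 reads and a HOXC9 event 216 bp away, beside 9 shared sites of 12 in all. Nhlh2, a neuronal bHLH gene, and Hes1, a Notch target, had 1 member each.

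Among axon guidance genes, Efna5 (an ephrin) had 4 members of 22 top sites, Plxna2 (a semaphorin co-receptor) 3 of 14, Nrp2 (a neuropilin) 3 of 13 and Epha3 (an ephrin receptor) 3 of 11. Of the adhesion genes, Cntnap2, Adgrl2 and Cdh11 had 4 each and Tenm3 (a teneurin) 3 of 18. Of the interneuron factor genes, Zfhx3 had 4 members of 15 top sites, and Nfib (a nuclear factor I gene), Sox14 (a SRY-box factor of interneurons) and Prdm8 had 2 each.

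A run of 13 members on chromosome 8, chr8:123410336-123433504, stood apart from the rest. It held 12 members in introns of Def8 and 1 nearest to Tubb3, the neuron-specific beta tubulin, within 23.2 kb, and no other run (members under 50 kb apart) had 4 or more. None of the 12 Def8 members had HOXC8, 3 had day 4 HOXC6, 5 had EB HOXC6 and 2 had TAAT. Their HOXC6 reads ran from 66.4 to 133.8, with a median of 9.60 scaled control reads against 4.70 over all members, and a median log2 fold over control of 2.46 against 3.75. The EB HOXC6 list had 14 events in the run, the day 4 HOXC6 list 6, the HOXD9 list 4, MEIS in iHoxc6 cells 3 and the HOXC9, HOXC10 and HOXC13 lists 0. The part of control signal in this run was not tested. Without the 13, HOXC8 was at 91.0% of members and day 4 HOXC6 at 98.1%.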

How the data were processed

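Binding event lists of 21 ChIP-seq groups (42 samples with controls) were used. According to the study's methods and the submitters' processing notes, reads were aligned to mm10 with Bowtie 1.0.1, Picard 2.8.2 was named among the tools, and events were called with MultiGPS over the pooled replicates of a group, with a control library for comparison and a q-value limit of 0.001. The deposited lists give, per event, expected counts (the authors' estimate of the ChIP reads belonging to it), the matching control reads after scaling, the log2 fold over control and a log2 q-value. They also hold columns of the authors' own comparisons between factors (log2 CPM, fold and p-value from edgeR 3.22.5), which were not used. Because replicates were pooled before calling, the lists carry no spread between differentiations. Libraries had 5036342 to 32883983 reads and signal fractions of 0.008 to 0.527, and the lists differed in length. A PCR read is not an independent molecule, and all intervals cover counting error only.

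Events on chromosomes 1 to 19 and X were ranked by HOXC6 reads. An event of another list within 100 bp counted as present. Shares were given with 95% Wilson intervals (scipy 1.17.1, numpy 2.4.6, pandas 2.3.3, Python 3.11.15), beside the share of all top HOXC6 sites, and members moved by 10 kb gave a local background. List coordinates were taken as 1-based and fell inside all 20 chromosomes of GRCm38.p6. Genes came from GENCODE release 21 for mouse (protein-coding, nearest TSS). Motifs were searched in 101 bp windows. The overlap and motif scripts were tested on simulated data and found 3 of 3 and 9 of 9 cases correct. Named genes were the nearest genes of the 15 members with the most HOXC6 reads, the 10 genes with the most members, up to 4 genes per list and the genes of printed sequences, and any other is said to be named after its values were seen. The members and gene lists were chosen with earlier results of these data known. Values of some single genes of these lists are not reported here.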

Additional observations from a re-analysis of the deposited data

How the results depend on the processing

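Of 153 shares recomputed under alternatives, 89 stayed inside the 95% counting interval of the reported share and 64 left it, and of 17 counts of members or genes 12 stayed within 1.5 times the reported one. Shares are percentages of members. Excluding sites by the 10000 strongest HOXC9 and HOXC10 events, in place of the full lists, gave 5089 members near 2982 genes, with HOXC8 at 95.4, HOXA9 at 62.5, HOXD9 at 57.7, HOXC13 at 14.5, any of the last 3 at 71.7, MEIS at 21.3, 16.4 and 15.8 in iHoxc6, iHoxc9 and iHoxc10 cells, EB HOXC6 at 17.4, EB HOXC9 at 23.4, day 4 HOXC6, HOXC9 and HOXC10 at 98.4, 35.3 and 16.2, and TTTAT at 32.4. The low HOXA9 and HOXD9 shares are those of the full lists. The top 5000 HOXC6 events gave 541 members near 484 genes, with HOXC8 at 96.5, HOXC13 at 5.73, any posterior factor at 42.5, MEIS at 21.4, 8.87 and 13.12, day 4 HOXC6 at 99.1, day 4 HOXC9 at 9.61 and promoters at 1.29. With the 10000 strongest events of the other list, HOXC8 was at 40.4, HOXA9 at 0.902, HOXD9 at 1.98, HOXC13 at 0.361, any of these posterior factors at 2.89, MEIS in iHoxc9 and iHoxc10 cells at 1.92 and 6.73, EB HOXC6 at 3.49, EB HOXC9 at 1.26, and day 4 HOXC6, HOXC9 and HOXC10 at 47.0, 0.842 and 1.86. With other lists at a q-value under 1e-05, HOXC8 was at 86.4, HOXA9 at 23.2, HOXD9 at 25.8, any posterior factor at 35.3, MEIS at 9.95, 3.93 and 5.58, and day 4 HOXC6 at 96.0. Members numbered 2043 at 50 bp, 1415 at 200 bp, 2061 with the stricter q-value and 1228 without those within 1 kb of a HOXC9 or HOXC10 event. A distance of 50 bp gave HOXC8 83.7, HOXD9 26.8, MEIS in iHoxc6 cells 11.0, EB HOXC6 8.76, day 4 HOXC6 91.2 and day 4 HOXC9 9.69, and 200 bp gave HOXC8 92.1, HOXD9 31.7, HOXC13 5.65, MEIS in iHoxc9 cells 4.45 and day 4 HOXC10 3.89. Ranking by q-value gave day 4 HOXC6 at 96.2. A window of 25 bp gave TAAT in 50.6 and TTTAT in 16.8. Promoters held 9.50 within 5 kb of a TSS and 6.07 with TSSs of all annotated genes, and assignment by gene body or within 10 kb gave 882 genes. A pair of alternatives was chosen after seeing the data. Leaving out members within 1 kb of a HOXC9 or HOXC10 event gave MEIS at 11.6, 3.58 and 6.19 and day 4 HOXC9 and HOXC10 at 6.27 and 3.34, and leaving out the 13 members of the Def8 and Tubb3 run moved no share out of its counting interval. Where a setting does not define the change by itself, the cause was not tested. No paired analysis was possible because each list pooled its replicates, and for the same reason no replicate could be left out in turn. The shallowest day 3 HOXC10 library had 5036342 reads, and its part in the number of members was not tested.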

Other observations

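Across all members, the sites called in the most other lists were a promoter site near Oacyl in 13 lists and an intronic site nearest to Wwox in 12, each with fewer than 75 HOXC6 reads (74.2 and 73.4), so the count of lists did not follow HOXC6 strength there. At the other end, the 6 members found in no other list were 3 sites in introns of Def8, a site nearest to Nkd1 and promoter sites near Exoc8 and Nr1d2. These sites were named after their values were seen.

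Among the 45 members within 1 kb of a TSS, those with the most HOXC6 reads lay near Ncoa7 (215.1 reads), a gene named for a nuclear receptor coactivator domain, Olfr571 (198.4 reads), an olfactory receptor gene, and Zfp106 (188.8 reads), a zinc finger gene. A site 12 bp from a TSS of Otx1, a homeobox gene of the forebrain and midbrain, had 102.1 reads. They were picked after their values were seen, and no explanation was tested.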
